A study of Mus musculus with 12 samples.

Results

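The NRF2 antioxidant programme and glutathione synthesis were followed through 10 genes in mouse liver: the transcription factor gene Nfe2l2, its inhibitor gene Keap1, and Nqo1, Gclc, Gclm, Gsr, Txnrd1, Srxn1, Gpx1 and Gpx7, which encode enzymes of quinone, glutathione, thioredoxin and peroxide metabolism. The members were taken by symbol, as every probe set that the array annotation assigns to one of these genes alone. This gave 18 of the 22626 probe sets, and all 10 genes were among the 12393 genes tested. Whole livers came from female C57BL/6 mice aged 8 to 12 weeks, and RNA was measured on 12 Affymetrix arrays, 3 in each of 4 groups: HDAC6-/- mice (H6), HDAC9-/- mice (H9), wild type on a high-fat diet with 60% of kcal from fat (OB), and wild type on regular chow with 25% of kcal from fat (WT). Both knockouts lack a histone deacetylase, an enzyme that removes acetyl groups from proteins. The labels give a diet for the wild-type groups and none for the knockouts, so genotype and a possible difference of diet cannot be told apart in a comparison of a knockout with a wild-type group. Replicates carry numbers in the labels, with no word on whether each is a separate mouse, so the spread behind every p-value here may be technical.

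NRF2, the product of Nfe2l2, is held in the cytoplasm by KEAP1, which hands it to a ubiquitin ligase for degradation. Oxidants and electrophiles modify KEAP1, and NRF2 then accumulates, pairs with a small MAF protein and binds antioxidant response elements (AREs) near its target genes. Much of this control acts on the protein, so the Nfe2l2 transcript need not follow NRF2 activity. The targets make and recycle glutathione and thioredoxin, the main thiol reductants of the liver, and detoxify quinones and other reactive compounds.

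Of the 10 genes 1, Gpx7, passed the test, and it was lowest in the HDAC9 knockout livers. The members were chosen with earlier results of these data known. Their counts, set beside the shares of all genes here and below, are therefore no independent test. Each value below is log2 expression per probe set as the authors deposited it after RMA, so a difference of 1 is a 2-fold change. Groups were compared with limma over all 12 arrays, adjusted p-values are Benjamini-Hochberg values over the 12393 genes of a comparison, and the threshold was 0.05. In a test for any difference among the 4 groups (limma's moderated F), 41 genes passed (0.331% of those tested). Gpx7 was the one member among them (adjusted p = 0.0328), and the others had adjusted p from 0.800 for Nfe2l2 to 0.974 for Gpx1. For these 9 other genes the largest of the 54 pairwise differences was 1.35-fold (Nqo1, high-fat against HDAC9 knockout), and the lowest adjusted p was 0.521. The size of that Nqo1 difference rested on single arrays, since it was 1.16-fold without HDAC9 knockout replicate 2 and 1.58-fold without replicate 1 (adjusted p = 0.936 and 0.0712). Against chow, the 95% intervals of their differences ran from -0.69 to 0.62 at the widest.

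**Figure D1:**
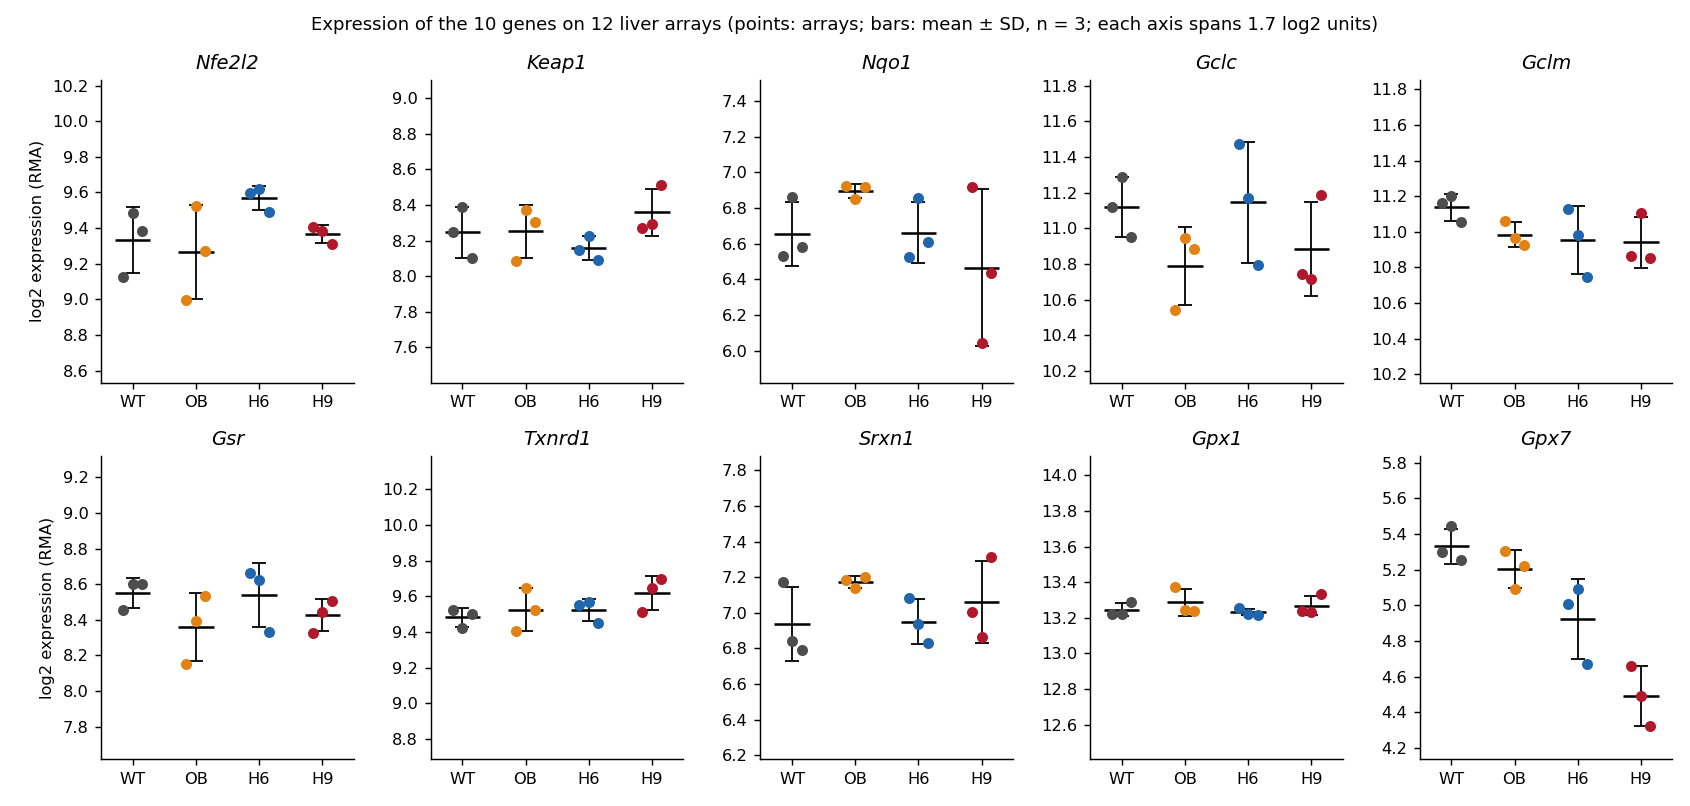
Log2 expression of the 10 genes on each array (points) with the mean ± SD (n = 3) of chow wild type (WT), high-fat wild type (OB), HDAC6 knockout (H6) and HDAC9 knockout (H9). The groups of 9 genes stand at similar heights, while Gpx7 reads 4.32 to 4.66 in H9 and 5.25 to 5.44 in WT.

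The arrays were alike in scale, with medians between 5.78 and 5.86 and correlations of 0.987 to 0.997 over all probe sets. Hdac6 read 6.28 ± 0.198 (SD, n = 3) in the HDAC6 knockout livers and 7.91 ± 0.0598 in chow livers, which fits that label. Hdac9 could not check the other label, because its mean was 4.204 in the HDAC9 knockout and 4.30 in chow livers, within the range of 18 background genes whose expression belongs to other organs (median 3.38, highest 6.93). The 6 measured hepatocyte markers read between 11.00 and 14.25 on every array. HDAC9 knockout replicate 2 carried exocrine pancreas transcripts, with a mean over 14 markers of 8.35 against 4.25 to 5.09 on the other arrays. On chow replicate 2, 17 probe sets lay more than 2 log2 units below all the other arrays, against 2 on chow replicate 1 and 0 on the other 10. Values without one of these arrays are given for a part of the differences and counts below, and the others may shift without them too.

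The proximal promoters were searched for the ARE core TGACNNNGC, the sequence through which NRF2 and small MAF proteins contact DNA, on both strands. RefSeq promoters (GRCm38.p6, 250 bases before to 50 after the start) were matched for 8 of the 10 genes, with 10 promoters in all because Txnrd1 has several starts. The motif was present in 4 of these 10, against 12.4% of all 32851 promoters. It lay at positions -240 to -232 in Nfe2l2, -134 to -126 in Gclm, -92 to -84 of one Txnrd1 start and 29 to 37 in Srxn1. The stretches with a match before the start are printed with the motif in capitals. Beside them stand the 150 bases before the start of Gpx7, whose promoter held no match. Keap1, Nqo1, Gpx1 and the other Txnrd1 starts held no match either. Of the 8 genes only Gpx7 passed in a comparison, so the others did not pass whether they held a match or not. In Gclm and Txnrd1 the match is on the opposite strand and appears as its reverse complement.
Nfe2l2 (chr2:75704865-75704913, minus strand): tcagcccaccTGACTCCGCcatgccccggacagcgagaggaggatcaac
Gclm (chr3:122245393-122245461, plus strand): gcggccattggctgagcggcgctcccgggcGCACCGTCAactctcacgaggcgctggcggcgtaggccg
Txnrd1 (chr10:82859084-82859152, plus strand): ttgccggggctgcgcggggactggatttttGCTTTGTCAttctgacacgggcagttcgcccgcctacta
Gpx7 (chr4:108406714-108406863, minus strand): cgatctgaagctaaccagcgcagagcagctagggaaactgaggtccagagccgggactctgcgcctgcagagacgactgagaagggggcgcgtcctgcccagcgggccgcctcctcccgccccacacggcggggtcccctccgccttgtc
A match is a description of these letters and not a binding site, and its absence says only that the letters are not in this window.

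Gpx7, an endoplasmic reticulum peroxidase of the glutathione peroxidase family that carries cysteine where GPX1 carries selenocysteine, read 4.66, 4.49 and 4.32 on the HDAC9 knockout arrays. It read 5.01, 5.09 and 4.67 in HDAC6 knockout livers, 5.30, 5.09 and 5.22 in high-fat livers, and 5.30, 5.44 and 5.25 in chow livers. The group means therefore ran from HDAC9 knockout through HDAC6 knockout and high-fat to chow. The arrays of neighbouring groups in this order barely parted: the highest HDAC9 knockout array (4.66) lay just under the lowest HDAC6 knockout array (4.67), and the highest HDAC6 knockout array and the lowest high-fat array both read 5.09. The high-fat and chow arrays overlapped, and every HDAC9 knockout array lay below every high-fat and chow array, the lowest of which read 5.09. In the HDAC9 knockout the Gpx7 signal fell by 0.84 against chow (SE 0.131, 1.79-fold, adjusted p = 0.0377). Only 12 genes passed in this comparison (0.0968% of those tested), of which 7 fell (0.0565%). High-fat livers also had a higher Gpx7 signal than HDAC9 knockout livers, by 0.71 (SE 0.131, 1.64-fold, adjusted p = 0.0309), in a comparison where 0.436% of genes passed and 0.266% were higher in high-fat livers. Both comparisons use the same HDAC9 knockout arrays, so they are not independent.

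The position of the HDAC6 knockout between the other groups did not pass. Gpx7 differed from chow by -0.41 (SE 0.131, adjusted p = 0.727) in the HDAC6 knockout, and the HDAC9 knockout differed from the HDAC6 knockout by -0.43 (SE 0.131, adjusted p = 1.00). Arrays did not overlap in either comparison, as in 10.1% and 8.46% of all genes. The high-fat minus HDAC6 knockout difference was 0.28 (adjusted p = 0.683), and high-fat minus chow was -0.13 with a 95% interval of -0.41 to 0.15 (adjusted p = 0.837). These were 0.16 without HDAC6 knockout replicate 3 and -0.072 without chow replicate 2.

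The Gpx7 signal lay in the range of the 18 background genes in every group, and 39.4% of probe sets had a lower mean. The effect of this low signal on the size of the difference was not tested. The calls rested on single arrays more than the differences did. The HDAC9 knockout minus chow difference stayed between -0.93 and -0.76 with any one of the 6 arrays left out, but the adjusted p rose above 0.05 without any of them except HDAC9 knockout replicate 1, to between 0.0690 and 0.152. Without HDAC9 knockout replicate 2, which carried the pancreas transcripts, the difference was -0.84 (adjusted p = 0.0944), and without chow replicate 2 it was -0.79 (adjusted p = 0.120). The high-fat minus HDAC9 knockout difference stayed between 0.63 and 0.80, and its adjusted p likewise rose above 0.05, up to 0.148, on leaving out any of the 6 arrays except HDAC9 knockout replicate 1.

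**Figure D2:**
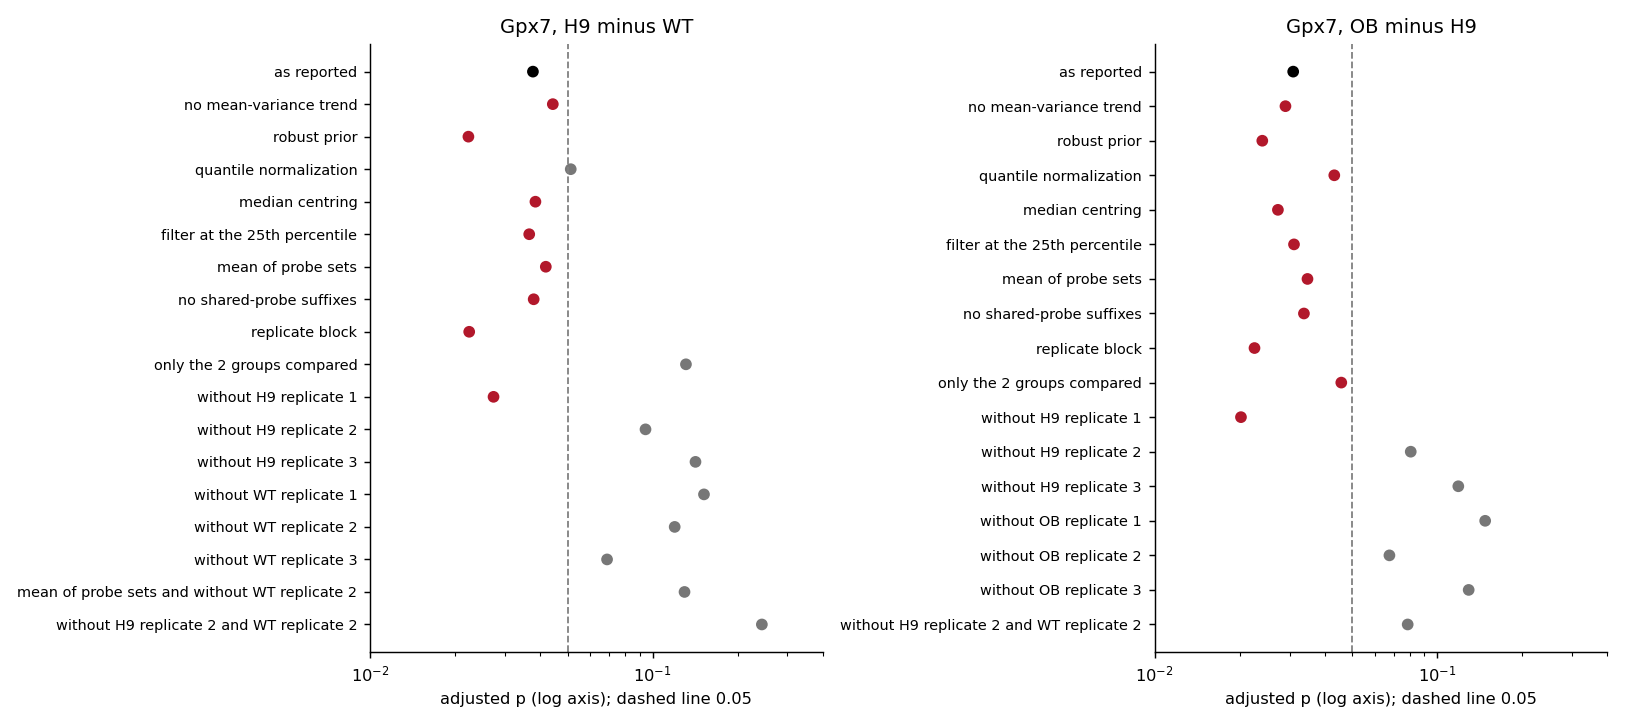
Adjusted p of Gpx7 (log axis; dashed line at 0.05) for the HDAC9 knockout minus chow (left) and high-fat minus HDAC9 knockout (right) comparisons as reported and under each alternative. Red points pass the threshold and grey points do not. Leaving out HDAC9 knockout replicate 1 gave 0.0274 and 0.0202, and leaving out any other single array of a comparison gave a value above the line.

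Markers of other liver cells are given beside Gpx7 as levels averaged over each list. Stellate cell and fibroblast markers (10 measured) averaged 7.44 to 7.65 on the HDAC9 knockout arrays and 7.54 to 7.72 on the chow arrays, which overlap, and 4 of the 10 had higher means in the knockout. Kupffer cell and macrophage markers (10 measured) averaged 9.07 to 9.37 against 8.76 to 9.13 and had higher means in 10 of 10. Adipocyte markers (5 measured) averaged 4.23 to 4.75 against 3.97 to 4.22, and neutrophil markers (9 measured) 4.402 to 5.10 against 4.15 to 4.36. Both upper ends came from HDAC9 knockout replicate 2, which carried the pancreas transcripts. HDAC9 knockout replicates 1 and 3 averaged 4.23 and 4.30 for adipocyte markers, and 4.402 and 4.49 for neutrophil markers. No marker of these lists passed over all genes, and the part of cell composition in the Gpx7 result was not tested. In whole liver, fewer cells of a type and less RNA per cell cannot be told apart.

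By Pearson correlation over the 12 arrays, given as a description, the 5 genes with profiles most like Gpx7 were Cenpk (r = 0.927), Dact1 (0.927), Zfp275 (0.924), Knop1 (0.915) and Tpmt (0.904). Of these only Cenpk passed the test over the 4 groups (adjusted p = 0.0286, limma). The same rule gave Snx4 (0.922), Klhl5 (0.913), Hs1bp3 (0.897), Ncoa1 (0.897) and Arid2 (0.890) for Nfe2l2, the member with the next smallest p, and none of these 5 passed (adjusted p of at least 0.859).

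Nfe2l2 and Keap1, the regulator and its inhibitor, did not pass in any comparison. Nfe2l2 read 9.60, 9.62 and 9.49 in HDAC6 knockout livers, 9.41, 9.39 and 9.31 in HDAC9 knockout livers, 8.995, 9.52 and 9.27 in high-fat livers and 9.13, 9.49 and 9.39 in chow livers. The HDAC6 knockout had the highest mean, and its arrays lay just above the chow arrays but overlapped with the high-fat arrays. The difference from chow was 0.24 (SE 0.127, adjusted p = 0.865), and 0.13 without chow replicate 1, the lowest chow array. High-fat livers spread widest, and their difference from the HDAC6 knockout was -0.31 (SE 0.127, adjusted p = 0.590). That difference was -0.17 without high-fat replicate 1, the array with the lowest value.

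Keap1 was read by a pair of probe sets that parted on chow replicate 2. The brighter one, which stands for the gene here, read 8.25, 8.39 and 8.10 in chow livers and between 8.08 and 8.51 elsewhere, with differences from chow of -0.090 (SE 0.113) in the HDAC6 knockout, 0.11 (SE 0.113) in the HDAC9 knockout and 0.0074 (SE 0.113) on the high-fat diet. Without chow replicate 2 these were -0.018, 0.18 and 0.078. The dimmer probe set read 3.64 on chow replicate 2 and 6.52 to 7.33 on the other 11 arrays. Averaging both probe sets would therefore give Keap1 a difference of 0.53 in the HDAC6 knockout (adjusted p = 0.907), and -0.010 once chow replicate 2 is left out. A second probe set of Gsr and 2 dimmer ones of Srxn1 were also lowest on chow replicate 2, by 0.27 for Gsr and by 0.50 and 0.55 for Srxn1.

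**Figure D3:**
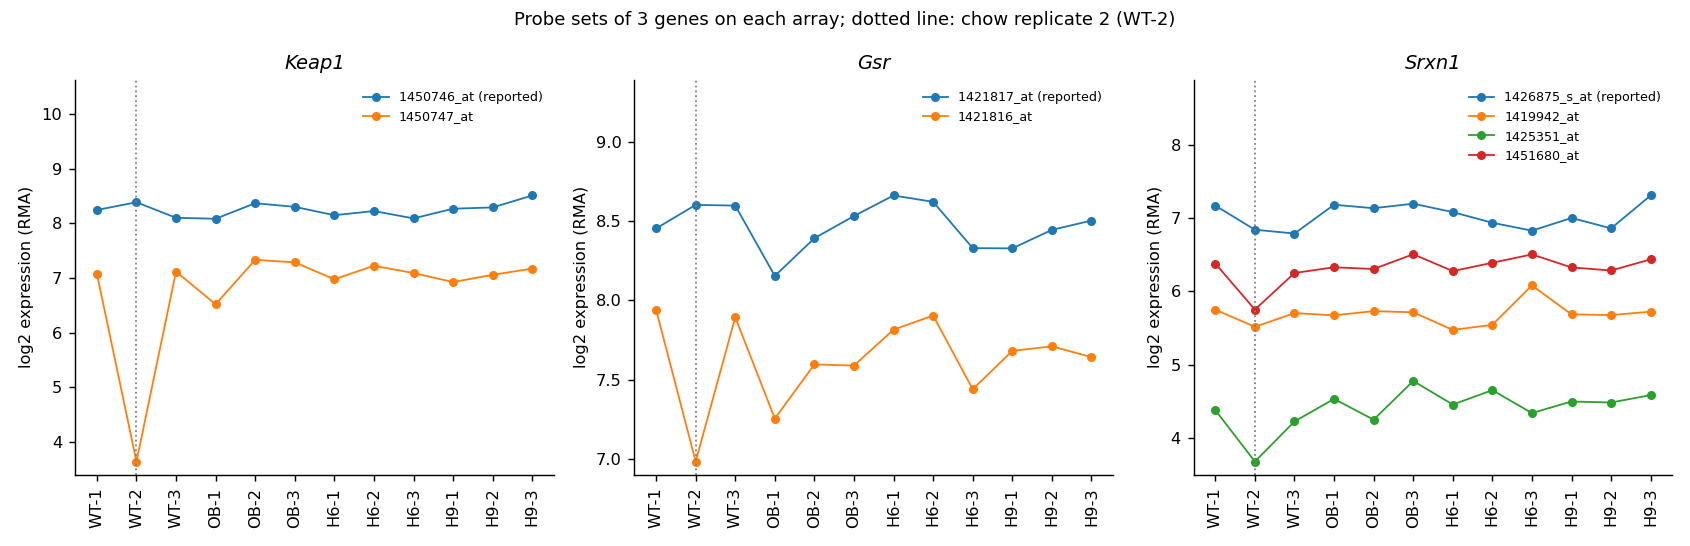
Log2 expression of every probe set of Keap1, Gsr and Srxn1 on each array; the dotted line marks chow replicate 2. The dimmer Keap1 probe set falls to 3.64 there while the reported one reads 8.39.

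Glutathione synthesis starts with glutamate-cysteine ligase, whose catalytic subunit is encoded by Gclc and whose modifier subunit is encoded by Gclm. Gclc read 10.54, 10.95 and 10.88 in high-fat livers and 11.12, 11.29 and 10.95 in chow livers, so that the high-fat arrays lay below the chow arrays, though the highest of the one and the lowest of the other both round to 10.95. The difference was -0.33 (SE 0.171, adjusted p = 0.631), in a comparison where the arrays of 14.7% of genes did not overlap. Without high-fat replicate 1, the lowest array, it was -0.203. The second Gclc probe set gave -0.33 as well, with the highest high-fat array (10.57) just under the lowest chow array (10.59). Its suffix marks probes shared with other transcripts, and it was read on the same arrays, so it is no independent reading. In the HDAC9 knockout Gclc read 10.75, 10.72 and 11.19 (difference -0.23, adjusted p = 0.875, and -0.15 without replicate 2 of either group). In the HDAC6 knockout it read 11.47, 11.17 and 10.79, the widest spread of the 4 groups. The HDAC6 knockout minus chow difference was 0.028 (adjusted p = 0.992). It was 0.11 without chow replicate 2 and 0.20 without HDAC6 knockout replicate 3. Without HDAC6 knockout replicate 1, the highest array, it turned to -0.14.

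Gclm varied less than Gclc, with a pooled within-group SD of 0.130 against 0.256. Chow livers read 11.16, 11.20 and 11.05 and had the highest mean. The differences from chow were -0.19 (SE 0.106) in the HDAC6 knockout, -0.20 (SE 0.106) in the HDAC9 knockout and -0.15 (SE 0.106) on the high-fat diet, with adjusted p of 0.874, 0.832 and 0.735. The first was -0.084 without HDAC6 knockout replicate 3. Each group overlapped with chow, and since all 3 differences use the same chow arrays they are not independent of each other.

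The recycling enzymes return oxidised thiols to their reduced form. Gsr, glutathione reductase, read 8.15, 8.39 and 8.53 in high-fat livers and 8.45, 8.60 and 8.60 in chow livers (difference -0.19, SE 0.120, adjusted p = 0.715), and without high-fat replicate 1, again the lowest array, the difference was -0.089. The second Gsr probe set gave -0.13, and -0.44 without chow replicate 2, on which that probe set was lowest. Txnrd1, cytosolic thioredoxin reductase, stayed between 9.40 and 9.70 on all 12 arrays. Its largest difference from chow was 0.14 (SE 0.093, adjusted p = 0.868) in the HDAC9 knockout. The other 2 Txnrd1 probe sets had means of 3.79 and 2.75, within the range of means of the background genes.

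Srxn1, sulfiredoxin, which restores overoxidised peroxiredoxins, read 7.18, 7.14 and 7.20 in high-fat livers, 7.17, 6.84 and 6.79 in chow livers, 7.08, 6.94 and 6.83 in HDAC6 knockout livers and 7.004, 6.86 and 7.31 in HDAC9 knockout livers. The high-fat arrays were tightly grouped above the HDAC6 knockout arrays and overlapped with chow. The differences were 0.24 from chow (SE 0.134, adjusted p = 0.680) and 0.22 from the HDAC6 knockout (SE 0.134, adjusted p = 0.816). The latter was -0.010 when the reported probe set, whose suffix marks probes shared with other transcripts, gave way to the next brightest one.

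Nqo1, which reduces quinones with NADH or NADPH and is a common readout of NRF2 activity, read 6.92, 6.85 and 6.92 in high-fat livers. The other groups spread more widely, with 6.53, 6.86 and 6.58 in chow, 6.52, 6.86 and 6.61 in HDAC6 knockout and 6.92, 6.04 and 6.44 in HDAC9 knockout livers. The group means of Nqo1, from 6.47 to 6.90, lay within the range of the 18 background genes (highest 6.93). That highest value was of Prm1, and the median of the 18 was 3.38. Of all probe sets, 61.1% had a lower mean than Nqo1, so this range alone does not place Nqo1 at background level. The high-fat mean was higher by 0.24 than chow (SE 0.178, adjusted p = 0.755) and by 0.43 than the HDAC9 knockout (SE 0.178, adjusted p = 0.521). The lowest value of the HDAC9 knockout came from the array with pancreas transcripts, replicate 2, and without it the HDAC9 knockout minus chow difference turned from -0.19 to 0.023 and the high-fat minus HDAC9 knockout difference went from 0.43 to 0.22. Without chow replicate 2 the HDAC9 knockout minus chow difference was -0.088.

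Gpx1, the abundant cytosolic glutathione peroxidase, stayed between 13.22 and 13.37 on all 12 arrays. Its pooled within-group SD of 0.051 was among the smallest, since 0.629% of genes had a smaller one. Its differences from chow were -0.013, 0.024 and 0.042 for the HDAC6 and HDAC9 knockouts and the high-fat diet (SE 0.067). Its signal was near the top of the scale, which ended at 14.25, and whether differences are compressed there was not tested.

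**Figure D4:**
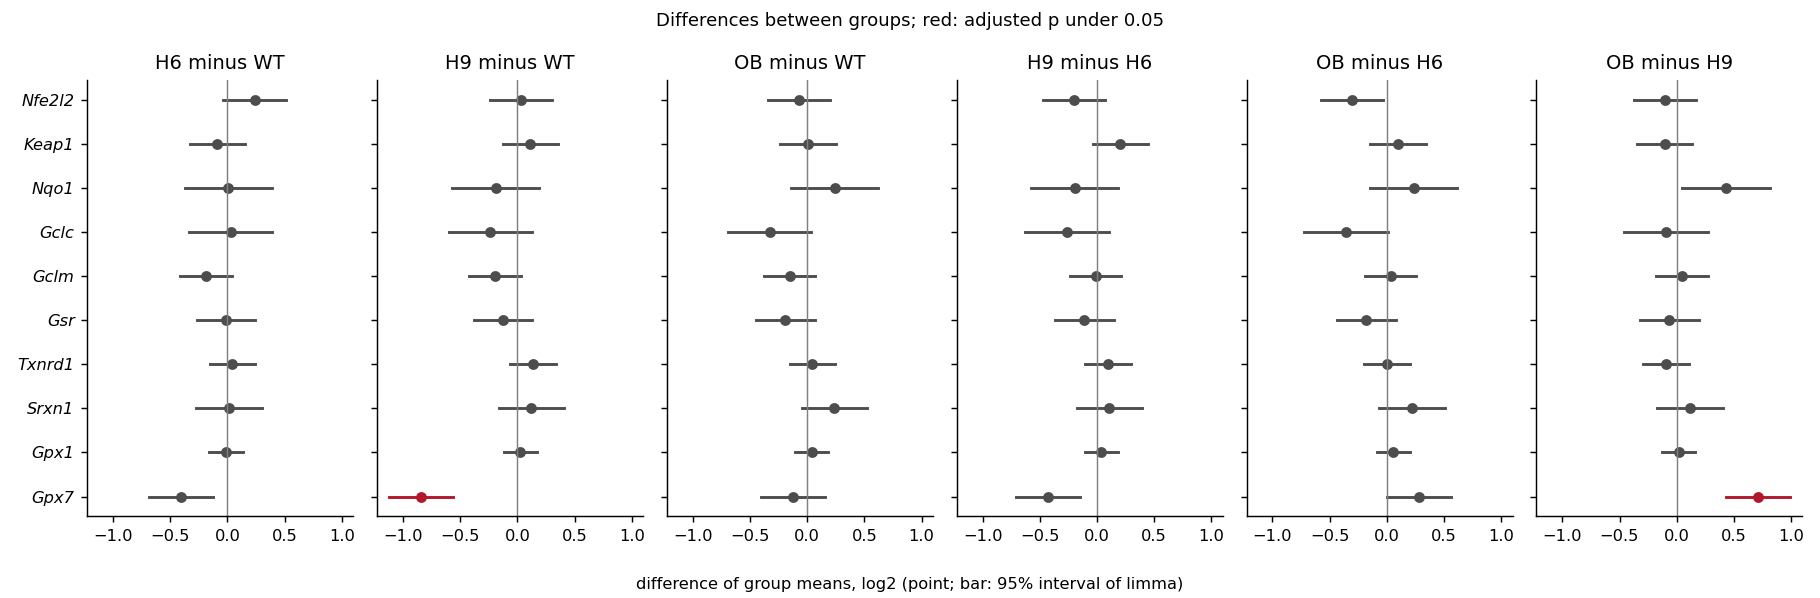
Differences of group means (points, log2) with 95% intervals from limma for the 10 genes in 6 comparisons. Gpx7 is the one gene drawn in red (adjusted p under 0.05), in H9 minus WT at -0.84 and in OB minus H9 at 0.71.

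The 10 genes split evenly against chow: 5 means were higher and 5 lower in each of the 3 comparisons. The median differences were -0.0031 in the HDAC6 knockout, -0.051 in the HDAC9 knockout and -0.031 on the high-fat diet, where all genes together had medians of -0.014, -0.014 and -0.010. The last 2 member medians changed sign with single arrays left out, to 0.024 without HDAC9 knockout replicate 2 (6 higher, 4 lower), and to 0.011 without chow replicate 2 (6 higher, 4 lower) and 0.031 without high-fat replicate 1 (5 higher, 5 lower) on the high-fat diet. The counts of members past limma's threshold were 0, 1 and 0, where 0.0161%, 0.0968% and 0.290% of all genes passed, and at an unadjusted p under 0.05 they were 1, 1 and 0, where 5.77%, 6.08% and 8.48% of genes did. The arrays of 2, 1 and 1 members did not overlap with chow, against 10.1%, 12.6% and 14.7% of genes.

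In the comparisons without chow, 0 members passed between the knockouts (0.00807% of genes), 0 between high-fat and HDAC6 knockout (0.145%) and 1, Gpx7, between high-fat and HDAC9 knockout. At an unadjusted p under 0.05 these counts were 1, 2 and 2, where 3.80%, 7.27% and 8.10% of genes were found. The arrays of 3, 2 and 1 members did not overlap, against 8.46%, 13.1% and 13.8% of genes. Between the knockouts these 3 were Gpx7, Nfe2l2 at -0.20 and Keap1 at 0.20, the first 2 being lower and Keap1 higher in the HDAC9 knockout. High-fat replicate 1 held the lowest value of 5 members, Nfe2l2, Keap1, Gclc, Gsr and Txnrd1, and of 14.5% of all genes.

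The rest of the pathway was read from lists of genes that hold none of the 10. Of 40 other NRF2 targets 34 were measured, and on the high-fat diet 1 rose and 1 fell. Hmox1, heme oxygenase, which opens the heme ring, read 6.72, 6.74 and 6.49 in high-fat livers and 5.74, 5.48 and 5.36 in chow livers, and rose 2.18-fold (log2 1.12, SE 0.213, adjusted p = 0.0465). These Hmox1 values lay within the range of the 18 background genes (highest 6.93), and the effect of this on the difference was not tested. The highest of the 18 was Prm1 and their median was 3.38, so this range alone does not place Hmox1 at background level. The high-fat arrays also lay above those of both knockouts, though HDAC6 knockout replicate 3 came close at 6.46. Ephx1, microsomal epoxide hydrolase, read 9.94, 10.11 and 9.99 against 11.36, 11.08 and 10.64 and fell 2.03-fold (log2 -1.02, SE 0.199, adjusted p = 0.0499). These 2 targets thus moved in opposite directions. Markers of Kupffer cells and macrophages had higher means on the high-fat diet in 10 of 10 (median 0.36) and averaged 9.20 to 9.53 against 8.76 to 9.13 on the chow arrays, with no overlap. Lymphocyte markers had higher means in 8 of 8 (median 0.15) and averaged 4.81 to 5.11 against 4.66 to 4.90, with overlap. Other lists went the opposite way. Cholangiocyte markers had higher means in 0 of 5 (median -0.17), and their averages on the high-fat arrays all lay below those on the chow arrays. Means were higher in 1 of 4 erythroid, 1 of 6 hepatocyte and 3 of 10 stellate cell and fibroblast markers. They were higher in 3 of 6 endothelial, 4 of 5 adipocyte, 6 of 9 neutrophil and 10 of 14 exocrine pancreas markers. None of these markers passed, and their part in the Hmox1 and Ephx1 results was not tested. Both calls were close to the threshold. The adjusted p of Hmox1 rose to between 0.0702 and 0.199 on leaving out any one of the 6 arrays, and that of Ephx1 rose to between 0.149 and 0.219 on leaving out any one except chow replicate 3.

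Among the 34 other targets, 12 had higher and 22 lower means on the high-fat diet, with a median of -0.14 against -0.010 for all genes. The arrays did not overlap for 2 on the higher and 8 on the lower side, where 7.02% and 7.71% of all genes did not overlap in these directions. In the HDAC6 knockout 25 had higher means (median 0.062) and in the HDAC9 knockout 13 (median -0.066), and 0 of the 34 passed in either. Without chow replicate 2 the counts of higher means were 23 and 15 (medians 0.090 and -0.019), and 12 on the high-fat diet (median -0.10). Without HDAC9 knockout replicate 2 the count in the HDAC9 knockout was 16 (median -0.030). In none of these fits was the list tested as a set. With all 12 arrays the targets of smallest p in the knockouts were Cbr3, a carbonyl reductase, at 0.32 (adjusted p = 0.852) in the HDAC6 knockout and Tkt, transketolase, at 0.30 (adjusted p = 0.832) in the HDAC9 knockout.

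**Figure D5:**
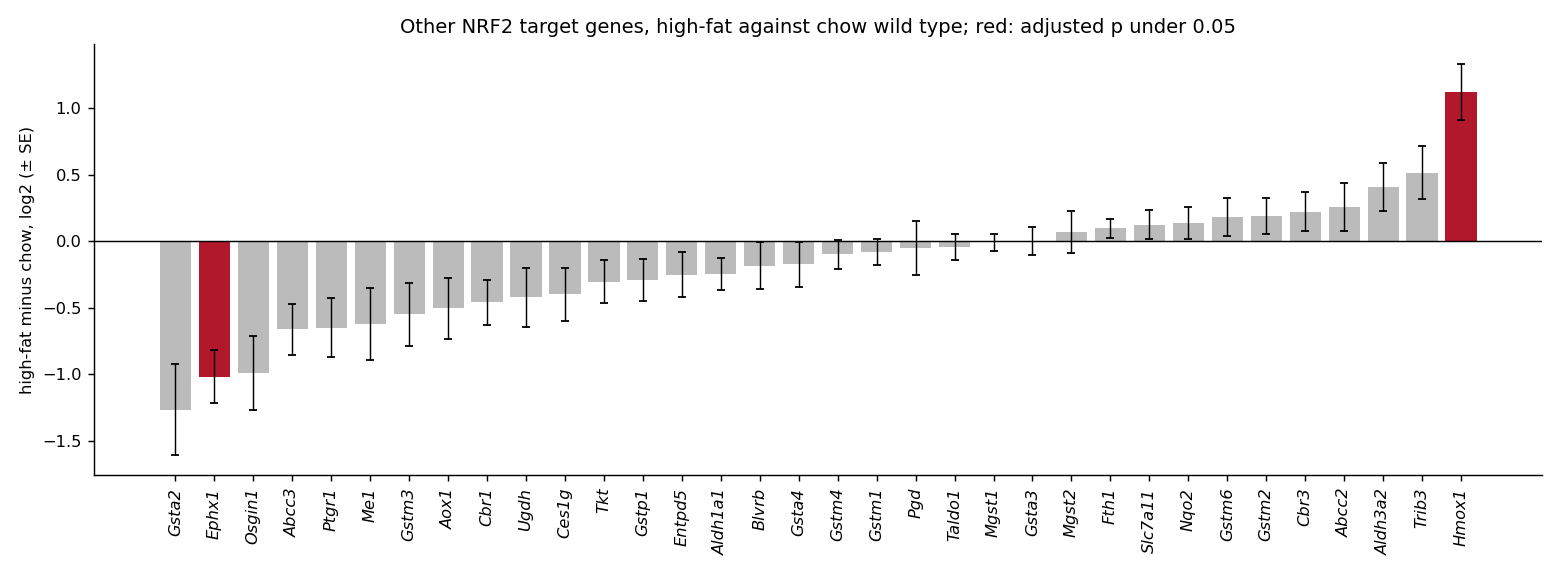
High-fat minus chow difference (bars, log2, ± SE) of the 34 other NRF2 target genes, sorted by size. Hmox1 at 1.12 and Ephx1 at -1.02 (red) passed the threshold, and 22 of the 34 bars are negative.

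The other lists held no gene past the threshold in any of the 6 comparisons. Among the 11 measured genes that control NRF2, Sqstm1, whose product draws KEAP1 into autophagy, had 0.26 in the HDAC6 knockout and 0.34 in the HDAC9 knockout (adjusted p = 0.873 and 0.763). Both rested on chow replicate 2, which read 9.56 where the other chow arrays read 10.31 and 10.17, and without it they were 0.038 and 0.12. The small MAF gene Maff had -0.43 on the high-fat diet (adjusted p = 0.490). Among 26 other genes of the glutathione and thioredoxin system, Gss, glutathione synthetase, the enzyme after glutamate-cysteine ligase, had -0.51 in the HDAC6 knockout (SE 0.160, adjusted p = 0.722). Against the same chow arrays Gss had -0.44 in the HDAC9 knockout (SE 0.160, adjusted p = 0.726). Gpx3, the plasma glutathione peroxidase, had 0.45 in the HDAC9 knockout (SE 0.130, adjusted p = 0.523), opposite in sign to Gpx7. Txnip, the thioredoxin inhibitor, had 0.57 on the high-fat diet (SE 0.191, adjusted p = 0.362). In the order HDAC6 knockout, HDAC9 knockout and high-fat, 14, 11 and 11 of these 26 had higher means than chow, and 10, 9 and 12 without chow replicate 2. The 5 genes of superoxide and peroxide removal had lower means for 5, 4 and 4 in that order, although Sod2, mitochondrial superoxide dismutase, turned from -0.087 and -0.11 to 0.0059 and 0.019 in the knockouts when its probe sets were averaged. Without chow replicate 2 the counts of lower means were 4, 3 and 4. Of the 7 measured genes of selenoprotein synthesis, 5, 4 and 4 had higher means (4, 3 and 5 without chow replicate 2), the one of smallest p being Sephs2, which makes the selenium donor, at 0.20 (SE 0.0884, adjusted p = 0.534) on the high-fat diet.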

How the data were processed

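The authors deposited log2 expression values per probe set after RMA (robust multi-array average), per the submitters' processing notes; the chip definition is not given in the sources used here. The deposited values were not normalized again, and 0 sample columns were left unused. Of 22626 probe sets, 20380 had 1 symbol in GEO's platform annotation, 691 several and 1555 none. The probe set of highest mean stood for each gene. The tests used limma 3.58.1 in R 4.3.3 (4 group means over 12 arrays, mean-variance trend, 14.32 degrees of freedom, median SE 0.124, two-sided, Benjamini-Hochberg over 12393 genes). The 3 arrays per group limit the precision; an exact test of 3 against 3 cannot go below 0.1. The fit was tested on data simulated with independent normal noise per gene. These held no arrays like chow replicate 2 or HDAC9 knockout replicate 2, so that test does not bear on them. Named were the 10 members, Hdac6, Hdac9, called list genes, up to 2 list genes of smallest p per chow comparison, and the 5 closest profiles of 2 members. The members and lists were chosen with earlier results of these data known. Alternatives changed the variance prior, fit, normalization, filter (25th and 50th percentiles), probe-set rule, replicate block and single arrays. Promoters came from RefSeq. Figures used Python 3.11.15 and matplotlib 3.10.9.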

Additional observations from a re-analysis of the deposited data

How the results depend on the processing

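Every count of members past the threshold that was 0 stayed at 0 under each alternative. The count of 1 (Gpx7) in the HDAC9 knockout against chow became 0 with quantile normalization (adjusted p = 0.0513), with only the 2 groups in the fit (0.131), with every probe set tested on its own (0.0594), and under the filter at the 50th percentile, which removes Gpx7. It ran from 0 to 1 over the single arrays left out, as did the counts for high-fat against HDAC9 knockout and for the 4-group test, and that filter took both of these to 0. Over all genes, the calls ran from 0 to 17 against 12 in the HDAC9 knockout, 1 to 4 against 2 in the HDAC6 knockout, 13 to 36 against 36 on the high-fat diet, 1 to 4 against 1 between the knockouts, 8 to 56 against 18 for high-fat against HDAC6 knockout and 9 to 97 against 54 for high-fat against HDAC9 knockout.

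With the replicate block Gpx7 had adjusted p = 0.0224 in the HDAC9 knockout against chow and 0.0226 for high-fat against HDAC9 knockout, and the member count was 1 in both. The same-numbered arrays correlated between -0.152 and 0.148 in their deviations from group means. With 3 arrays a group such correlations cannot decide whether a shared number stands for a batch or pairing, and the labels do not say. The block ended the call of Hmox1 (adjusted p = 0.0638), which quantile normalization (0.0641), median centring (0.0506) and the mean of probe sets (0.0614) also did. Ephx1 did not pass with a robust prior (0.0930), among other settings.

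Of 58 member differences that did not pass, 0 passed under any alternative. Of 1034 member values under alternatives 55 changed sign, 11 of them by more than 1 SE. With the mean of probe sets, Keap1 had 0.53 in the HDAC6 knockout, Txnrd1 -0.0027 between the knockouts and 0.0023 for high-fat against HDAC9 knockout, and Sod2 0.0059 and 0.019 in the HDAC6 and HDAC9 knockouts. Leaving out chow replicate 2 as well gave Sod2 0.013 and 0.026 and Sod1 0.055. Without shared-probe suffixes Srxn1 had -0.041 between the knockouts and -0.010 for high-fat against HDAC6 knockout. With single HDAC9 knockout arrays left out, Nqo1 ran from -0.42 (without replicate 1) to 0.023 (without replicate 2) against chow and from -0.42 to 0.016 against the HDAC6 knockout. Without replicate 2 of both the HDAC9 knockout and chow, Nqo1 had 0.12 against chow. With single high-fat arrays left out, Nfe2l2 ran from -0.20 (without replicate 2) to 0.065 (without replicate 1) against chow and from -0.23 to 0.030 against the HDAC9 knockout. The fits that leave out chow replicate 2 together with another change were added after seeing the data, and both gave a Gpx7 count of 0 in the HDAC9 knockout against chow (adjusted p of 0.130 and 0.244).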
